A study of Rattus norvegicus with 8 samples.

Results

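The genes described here encode splicing factors and neuronal RNA-binding proteins, measured in rat hippocampus. The rule took probes whose RefSeq accession maps to a symbol beginning with Srsf, Hnrnp, Sf3, Snrp, Celf, Elavl or Nova, to Rbm followed by a digit, or to Rsrp1, with Rbm38 left out. It uses names and no measured values, but it was written with earlier results of these data known, and Rsrp1 and Rbm38 were already known to have called probes. This gave 95 probes of 62 genes, of 41012 probes on the array, 15184 of which could be assigned to 12206 named genes. By role, 6 genes encode SR proteins, 16 hnRNPs, 7 subunits of SF3, 6 proteins of the snRNPs, 4 CELF proteins and 3 ELAVL proteins, while 19 are RBM genes and the last is Rsrp1. No probe matched Nova1, Nova2 or Rbm3, and these genes were not analysed here.

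The control group was 4 male Wistar rats on a standard diet, and the CCH group was 4 male Wistar rats whose same diet held 0.1% coral calcium hydride (CCH), a powder of coral calcium made to carry hydrogen. The rats were 6 weeks old when assigned to a feed and 8 weeks old when the hippocampi were taken. The titles and treatment labels, which set the groups, name no transgene, lesion or further agent for either group. The free-text sample descriptions go against them: they speak of a Parkinson's disease model and L-DOPA, and they were not used. One Cy3-labelled array was hybridised per rat, so each group has n = 4, and the question was whether the hydride feed altered hippocampal RNA levels.

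Newly made transcripts are spliced by the spliceosome, a machine of small nuclear ribonucleoproteins (snRNPs) that recognises the ends of introns, with SF3 anchoring the U2 snRNP at the branch point. SR proteins, named for their arginine- and serine-rich tails, mostly favour the use of an exon, while hnRNPs often oppose it and also package, move and protect mRNA. CELF and ELAVL proteins bind GU-rich and AU-rich stretches respectively, and neurons use them to control splicing, mRNA stability and translation of synaptic genes.

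A level below is the log2 processed signal of a probe minus the 75th percentile of its array, and a difference is the mean level of the CCH arrays minus that of the control arrays. Levels of different probes cannot be set against each other. The 75th percentile of signal was 563 to 700 on the control arrays and 642 to 882 on the CCH arrays, 76.3% to 79.9% of spots passed the scanner's test for signal well above background, and 0 were saturated. Of the 95 probes, 94 could be tested, all of them well above background on all 8 arrays. The exception was the probe of Rbm20, a splicing regulator of the heart muscle protein titin, which was not well above background on any array. Control arrays shared 1 slide and CCH arrays shared another, and the slides were scanned separately. Effects of the feed, the slide and the scan therefore cannot be told apart in any result here. Markers of neurons were tested for 9 of 10 listed genes and markers of hippocampal principal cells for 6 of 7. The array scores of the neuron markers (mean deviation from each gene's average) overlapped between the groups, at -0.14 to 0.19 in the controls and -0.17 to 0.06 on CCH. Those of 10 oligodendrocyte markers did not, at -0.34 to -0.07 and 0.07 to 0.36. Choroid plexus markers scored -0.58 to 2.08 on control arrays and -3.67 to 1.55 on CCH arrays, lowest on CCH replicates 4 and 2. In whole tissue, fewer cells of a type and less RNA per cell cannot be told apart, and the part of these cell types in the differences below was not tested.

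RefSeq promoter sequences (GRCr8) were matched for 56 of the 62 genes. The 3 genes printed below are those with the smallest unadjusted p among the genes that have one, since Rsrp1 is not among them. Each run covers 250 bases before to 50 after the transcription start, 5′ to 3′ on the gene's own strand, and capitals mark every match, on either strand, to one of 8 short motifs. Hnrnpr lies at chr5:153826269-153826568 on the plus strand, Srsf2 at chr10:102554092-102554391 on the minus strand and Rbm41 at chrX:108448920-108449219 on the minus strand.
Hnrnpr: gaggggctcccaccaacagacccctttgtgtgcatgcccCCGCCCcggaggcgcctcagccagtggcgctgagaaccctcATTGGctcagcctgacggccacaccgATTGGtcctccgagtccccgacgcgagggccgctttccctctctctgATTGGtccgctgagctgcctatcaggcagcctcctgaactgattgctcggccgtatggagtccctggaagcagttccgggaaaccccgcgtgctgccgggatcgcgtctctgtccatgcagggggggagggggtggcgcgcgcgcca
Srsf2: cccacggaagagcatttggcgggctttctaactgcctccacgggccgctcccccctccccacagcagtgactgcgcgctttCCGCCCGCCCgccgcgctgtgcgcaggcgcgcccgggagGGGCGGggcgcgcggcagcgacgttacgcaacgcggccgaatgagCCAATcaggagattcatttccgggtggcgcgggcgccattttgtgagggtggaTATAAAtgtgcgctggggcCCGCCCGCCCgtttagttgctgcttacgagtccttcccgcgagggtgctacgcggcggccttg
Rbm41: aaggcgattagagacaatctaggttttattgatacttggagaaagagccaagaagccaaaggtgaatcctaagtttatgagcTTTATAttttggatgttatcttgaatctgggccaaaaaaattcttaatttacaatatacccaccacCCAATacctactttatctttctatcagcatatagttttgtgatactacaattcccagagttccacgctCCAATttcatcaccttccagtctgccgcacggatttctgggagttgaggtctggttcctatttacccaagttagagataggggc

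In these windows Hnrnpr has 1 GC box (GGGCGG, read as CCGCCC on the other strand) and 3 CCAAT boxes (CCAAT, or ATTGG). Srsf2 has 5 GC boxes, 1 CCAAT box and 1 TATA box (TATAAA, or TTTATA), some of the GC boxes overlapping each other, and Rbm41 has 2 CCAAT boxes and 1 TATA box but no GC box. Base composition separated them, with 67.3% G and C and 24 CpG dinucleotides in Hnrnpr, 68.7% and 39 in Srsf2, and 39.3% and 4 in Rbm41. Among the 56 matched genes a CCAAT box was found in 31 (55.4%), against 38.1% of the promoters of 7945 tested genes and 37.7% of all 27457 promoters. A GC box was found in 29 (51.8%), against 58.7% and 34.9%. The ETS motif CCGGAAG was in 19.6%, against 16.4% of tested genes, and the TATA box in 10.7%, against 8.16%. The E-box CACGTG was in 10.7% against 9.16% and the cAMP element TGACGTCA in 3.57% against 2.95%. The YY1 motif AAGATGGCG was in 1.79% against 3.11%, and the heat shock element GAANNTTC in 5.36% against 5.49%. Such matches describe letters in a window and are no evidence of binding.

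Most of these genes differed little between the feeds. Of 94 tested probes, 61 were higher and 33 lower on CCH, with a median difference of 0.05, against 0.03 over all 31618 tested probes. With each gene read from its brightest probe, 41 of 61 genes were higher (67.2%, against 53.1% of 9741 named genes) and the median was 0.06, against 0.02. That median turned to -0.02 when CCH replicates 2 and 4, the arrays with the least choroid plexus signal, were left out. This left CCH replicates 1 and 3, on which the median deviation from the control mean was -0.11 and 0.10. The median difference was 0.04 without CCH replicate 2 alone, 0.05 without CCH replicate 4 alone and 0.09 without CCH replicate 1. In limma, with p-values adjusted across the whole array by the Benjamini-Hochberg method and 0.05 as the limit, 0 probes rose and 1 fell, a probe of Rsrp1. Over the whole array 55 probes passed (0.174%), 0.0759% higher and 0.098% lower. At an unadjusted p under 0.05 there were 7 probes higher and 6 lower, 13.8% of those tested, beside 15.4% over the array (8.79% higher and 6.59% lower). The groups of arrays did not overlap for 13 probes (13.8%), 7 with CCH above and 6 with CCH below, against 11.3% over the array (6.59% above and 4.7% below). Both shares are near the background, and nothing is read from them. The median SD over probes was 0.11 in the controls and 0.17 on CCH, against 0.16 and 0.21 for all tested probes.

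**Figure D1:**
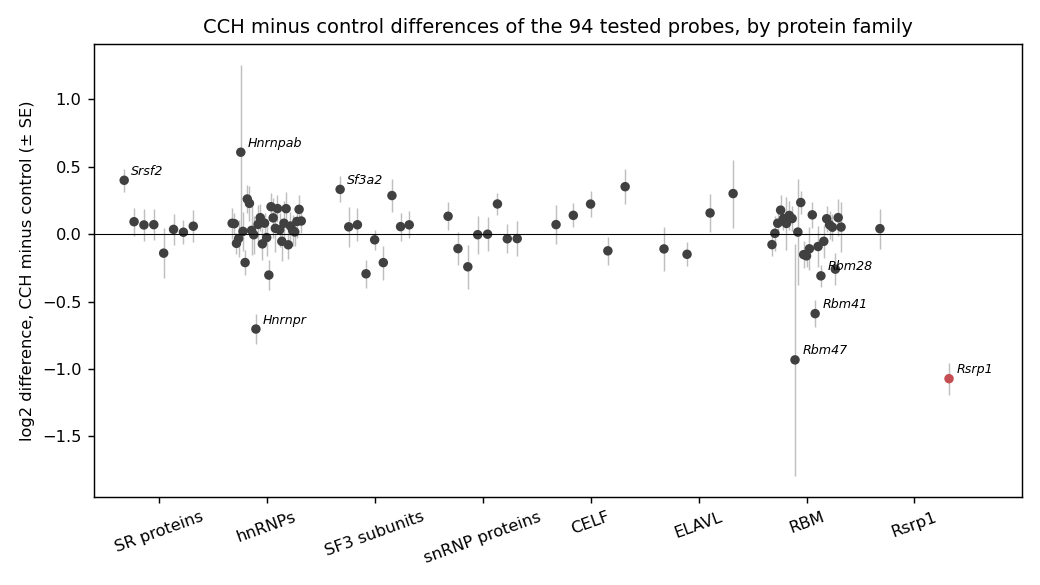
Differences (CCH minus control, log2, with SE) of the 94 tested probes on the vertical axis, grouped by role on the horizontal axis, with 1 point per probe and the called probe in red. Most points lie near 0, and the Rsrp1 probe at -1.07 is the only one that passed the threshold.

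Rsrp1 encodes a small arginine- and serine-rich protein whose molecular role is little studied. Its probe A_44_P396370 was at 2.93, 2.63, 3.00 and 2.80 in control replicates 1 to 4 and at 1.64, 1.66, 1.80 and 1.98 in CCH replicates 1 to 4. Every CCH array lay below every control array. The mean fell by 1.07 ± 0.12 (SE, n = 4 per group), a 2.10-fold lower signal (limma adjusted p = 0.0276). Its name was put in the selection rule with this result already known, so the call is given as a description. Leaving out any single array kept the difference between -1.14 and -1.02. The call held without CCH replicate 1 (adjusted p = 0.0355) and was lost without each of the other arrays (adjusted p from 0.0649 to 0.124) and without both CCH replicates 2 and 4 (adjusted p = 0.222). In each of these settings where the call was lost, 0 or 1 probes were called over the whole array.

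The second Rsrp1 probe, A_44_P261538, did not move with the first. It was at 4.60, 4.74, 4.68 and 4.75 in the controls and at 4.32, 4.72, 4.99 and 4.91 on CCH, a difference of 0.04 ± 0.15 (limma adjusted p = 0.927). The groups overlapped, and its sign turned with a single array left out. Both probes carry the same RefSeq transcript accession. Since both sit on every array, their gap (the called probe minus the brighter one) can be compared without any scaling between arrays. The gap was -1.66, -2.11, -1.68 and -1.96 in the controls and -2.67, -3.06, -3.19 and -2.93 on CCH, with no overlap. It changed by -1.11 ± 0.14 (limma adjusted p = 0.0122 over 2729 probe pairs of all genes), and the call was lost without control replicate 1 (adjusted p = 0.0532) and without both CCH replicates 2 and 4 (adjusted p = 0.135). This gap holds the probe whose call was already known, so it too is given as a description and is not a separate test.

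The hnRNPs, 16 genes with 33 probes, had no called probe and a median gene difference of 0.05, with 11 genes higher and 5 lower. Hnrnpr, which binds mRNA in neuronal nuclei and axons, held the lowest difference of the group, in a probe singled out after its values were seen. That probe, A_44_P210235, was at 1.38, 1.24, 1.23 and 1.10 in the controls and at 0.53, 0.76, 0.55 and 0.32 on CCH. The groups were well apart, with a difference of -0.70 ± 0.11, a 1.63-fold lower signal, that missed the threshold (limma adjusted p = 0.0562). It passed without CCH replicate 1 (adjusted p = 0.045) and with another background correction (adjusted p = 0.0405). Calls over the whole array also rose in these settings, from 55 to 701 and 246. With other single arrays left out, the limma adjusted p of this Hnrnpr probe reached 0.159. Without both CCH replicates 2 and 4 it was 0.314. Its brighter probe, A_44_P840829, was at 2.62, 2.68, 2.74 and 2.64 in the controls and at 2.97, 2.74, 2.47 and 2.61 on CCH, a difference of 0.03 ± 0.12 with overlapping groups. The gap between these probes was -1.23, -1.43, -1.51 and -1.54 in the controls and -2.44, -1.99, -1.92 and -2.30 on CCH. It changed by -0.73 ± 0.13 (limma adjusted p = 0.0288), and the call was lost without any 1 of the controls, CCH replicate 2 or CCH replicate 4 (highest adjusted p = 0.0996), and without both of these CCH arrays (adjusted p = 0.191).

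Among 33 probe pairs of these genes, the 2 gaps just described were called and 3 had an unadjusted p under 0.05. Over all genes 93 of 2729 pairs were called (3.41%), and 15.9% had an unadjusted p under 0.05. Gap calls depended on single arrays: over all genes there were 207 without CCH replicate 1 and 0 without control replicate 1, and among these 33 pairs 3 and 0. The third gap was that of Hnrnpa3, a shuttling hnRNP of the A/B family with 6 probes. Its probe A_44_P433542 was at -0.30 ± 0.11 (limma adjusted p = 0.26), with CCH arrays below all controls, while its other 5 probes lay between -0.08 and 0.10. For most genes with several probes the readings were close. Of 26 such genes, 20 had a spread of differences under 0.2 between their probes, the median spread was 0.08, and in 17 all probes had the same sign. The closest were both probes of Hnrnpd, an AU-rich element binder also called AUF1, at -0.03 and -0.02.

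**Figure D2:**
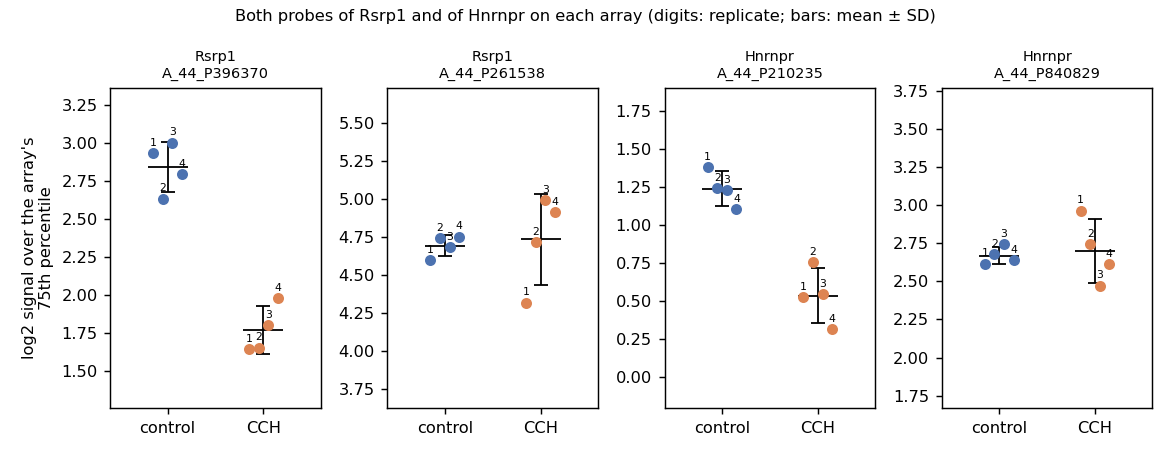
Levels (log2 signal over the array's 75th percentile, vertical axis) of both probes of Rsrp1 and both of Hnrnpr in control and CCH rats, with digits for the replicate and bars for the mean and SD. In each gene the groups separate on one probe (Rsrp1 at -1.07, Hnrnpr at -0.70) and overlap on the other (0.04 and 0.03).

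The remaining hnRNPs named by rule did not pass the test. The 3 probes of Hnrnpa1, a classic silencer of exons, were at differences of 0.20, 0.09 and 0.18. Those of Hnrnph1, which binds runs of G, were at 0.19 and 0.23, the brighter one with CCH above control on every array. Hnrnpdl, a relative of Hnrnpd, was at -0.21 ± 0.09 (limma adjusted p = 0.33). Some of these genes share their name with annotated pseudogenes, 51 for Hnrnpa1, 7 for Hnrnpk and 2 for Hnrnpr. A probe that also binds such copies cannot be told from one that does not.

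Hnrnpab, which binds AU-rich RNA in neuronal mRNA transport, shows how a single array can set a difference. Its dimmer probe, A_44_P106037, was at -3.18, -3.27, -3.28 and -3.31 in the controls, at -3.39, -3.46 and -3.39 in CCH replicates 2 to 4, and at -0.36 in CCH replicate 1. The difference of 0.61 ± 0.65 became -0.16 without that array, and the brighter probe was at 0.08.

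Of the SR proteins, 5 of 6 genes were higher and 1 lower, with a median gene difference of 0.07 and no called probe. Srsf2, also known as SC35, is a component of nuclear speckles that binds exonic enhancers and regulates its own mRNA by splicing. It was at -0.69, -0.60, -0.62 and -0.58 in the controls and at -0.37, -0.19, -0.18 and -0.15 on CCH. All 4 CCH arrays were above all controls, by 0.40 ± 0.08 or 1.32-fold on average, without passing the threshold (limma adjusted p = 0.0806). It passed when CCH replicate 1, the lowest of its group, was left out, at 0.45 (adjusted p = 0.0364). With other single arrays left out, the limma adjusted p of Srsf2 reached 0.219, and without both CCH replicates 2 and 4 it was 0.443. Srsf3, the smallest SR protein, was at 0.09 and 0.06 by its 2 probes, and 10 pseudogenes carry its name. Srsf5, another enhancer binder, was at -0.14 and 0.01, the first of which became 0.04 without CCH replicate 1. Srsf1, Srsf9 and Srsf10 lay at 0.07, 0.07 and 0.04.

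SF3 subunits, 7 genes, had a median difference of 0.06, with 5 genes higher and 2 lower and no call. Sf3a2, part of the trimer that completes the U2 snRNP, was at -2.30, -2.03, -2.0 and -2.01 in the controls and at -1.68, -1.78, -1.82 and -1.72 on CCH. The groups did not overlap, with a difference of 0.33 ± 0.10 (limma adjusted p = 0.166). Sf3b3, a scaffold protein of the SF3b complex, was at 0.29 ± 0.12 (adjusted p = 0.301) and at 0.18 without CCH replicate 1, its highest array at 1.55. Both probes of Sf3b2, another SF3b subunit, were lower on CCH, at -0.21 and -0.29, without passing the test.

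The 6 snRNP proteins were divided, 3 higher and 3 lower, with a median of -0.00. Snrpd2, one of the Sm proteins that form a ring around spliceosomal snRNAs, was at 2.52, 2.68, 2.57 and 2.70 in the controls and at 2.81, 2.82, 2.85 and 2.89 on CCH. Its groups did not overlap, at 0.22 ± 0.08 (limma adjusted p = 0.239). Snrpb2, a U2 protein, was at -0.24 and Snrpa, an RNA-binding protein of the U1 snRNP, at 0.13. Snrpn, the imprinted Sm protein of neurons, was at 0.00 ± 0.13.

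**Figure D3:**
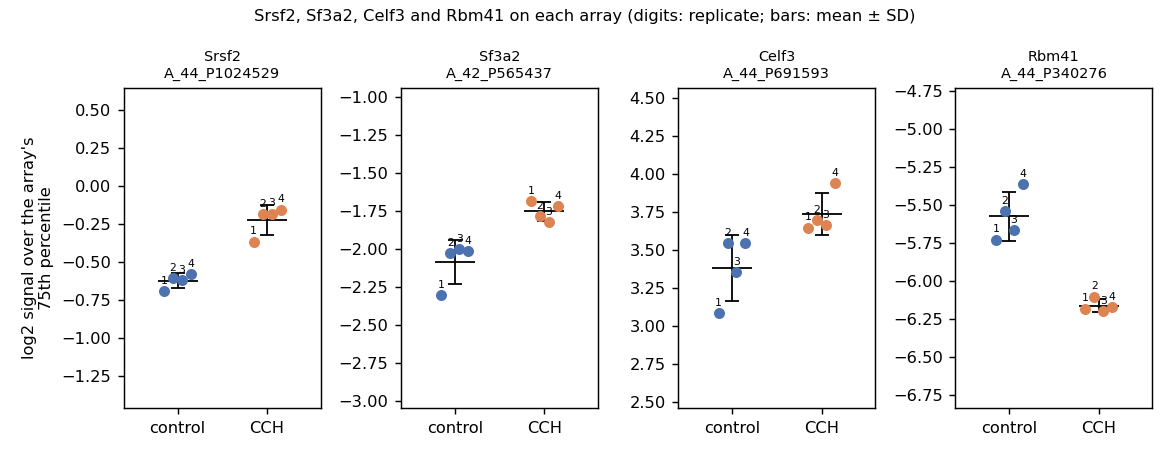
Levels (log2 signal over the array's 75th percentile, vertical axis) of Srsf2, Sf3a2, Celf3 and Rbm41 in control and CCH rats, with digits for the replicate and bars for the mean and SD. CCH arrays lie above all controls for Srsf2 (0.40), Sf3a2 (0.33) and Celf3 (0.35) and below them for Rbm41 (-0.59), and none of these probes passed the threshold.

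Among the neuronal families no probe was called, and their groups mostly overlapped. Celf3, a CELF protein of the nervous system, was at 3.09, 3.54, 3.35 and 3.55 in the controls and at 3.65, 3.70, 3.66 and 3.94 on CCH, with every CCH array above every control. The difference was 0.35 ± 0.13 (limma adjusted p = 0.246). Celf2, abundant in forebrain, was at 0.22 ± 0.10 (adjusted p = 0.332). Celf1, which promotes decay of GU-rich mRNAs, was at 0.07 and 0.14 by its 2 probes, the first turning to -0.03 without CCH replicate 1, and Celf6 was at -0.12.

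Elavl1 (HuR), the ELAVL protein made in most cell types, was at 0.30 ± 0.25 (limma adjusted p = 0.625) with wide overlap, and at -0.03 without CCH replicates 2 and 4. Elavl3 (HuC), a neuronal member, was at 0.16 ± 0.14. Both probes of Elavl4 (HuD), a neuronal stabiliser of AU-rich mRNAs, were lower, at -0.11 and -0.15. The first of these turned to 0.05 without CCH replicate 1, where it was at 3.33 against 3.92 to 3.98 in the other CCH rats.

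The RBM genes share little beyond an RNA-recognition motif, and their 18 tested genes had a median difference of 0.03, with 11 higher and 7 lower and no call. Rbm41, a protein linked to the minor spliceosome, was at -5.73, -5.54, -5.66 and -5.36 in the controls and at -6.18, -6.10, -6.20 and -6.17 on CCH. All CCH arrays were lower, with a difference of -0.59 ± 0.10 (limma adjusted p = 0.0567). This dim probe is sensitive to background, with a difference of -0.31 (adjusted p = 0.127) after normexp correction, and it passed without CCH replicate 1 (adjusted p = 0.045). With other single arrays left out, the limma adjusted p of Rbm41 reached 0.156, and without both CCH replicates 2 and 4 it was 0.352.

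Rbm45, an RNA-binding protein of developing neurons, was higher on every CCH array, at 0.24 ± 0.08 (limma adjusted p = 0.226). Rbm48, which acts in splicing of minor introns, was at -0.26 (adjusted p = 0.354). Rbm28, a nucleolar protein, also had unlike probes. Its dimmer probe, A_44_P387078, was at -0.63, -0.53, -0.68 and -0.60 in the controls and at -0.97, -0.86, -0.86 and -1.0 on CCH, a difference of -0.31 ± 0.08 (adjusted p = 0.133). The brighter one was at 0.08 ± 0.20, and their gap did not pass (adjusted p = 0.348). Rbm28, Hnrnpab and Rbm47 were singled out after their values were seen.

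Rbm47, an epithelial RNA-binding protein and cofactor of apolipoprotein B mRNA editing, was unlike the others in its spread between rats. It was at -1.98, -4.48, -2.23 and -2.95 in the controls and at -2.21, -5.15, -2.56 and -5.45 on CCH. The groups overlapped, and the difference of -0.93 ± 0.86 (limma adjusted p = 0.664) ranged from -1.48 to -0.39 as single arrays were left out. Ttr, transthyretin, the main secreted product of the choroid plexus, was at 7.66, 4.95, 7.79 and 7.20 in the controls and at 6.47, 1.09, 7.34 and 0.56 on CCH. The 3 arrays lowest for Rbm47 were the 3 lowest for Ttr: CCH replicates 2 and 4 and control replicate 2. Without CCH replicates 2 and 4 the Rbm47 difference was 0.53. How much choroid plexus came with each hippocampus was not measured, and its part in the Rbm47 values was not tested.

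**Figure D4:**
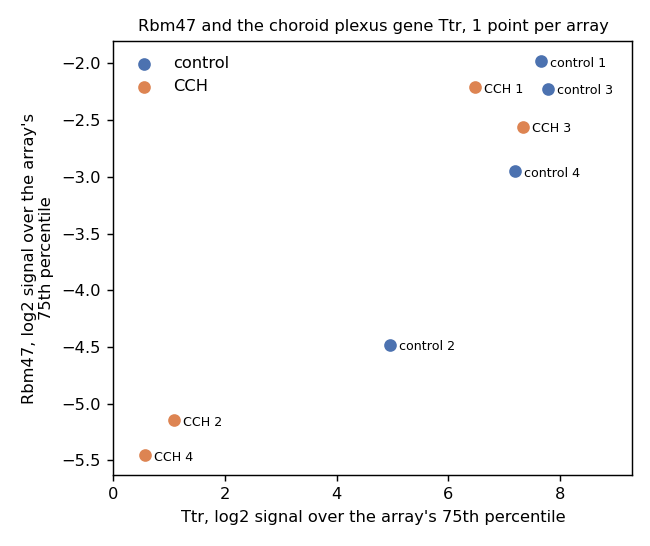
Level of Rbm47 (vertical axis) against that of Ttr (horizontal axis), both as log2 signal over the array's 75th percentile, with 1 labelled point per rat and array, in control and CCH colours. The 3 rats with the lowest Ttr (0.56, 1.09 and 4.95) also have the lowest Rbm47 (-5.45, -5.15 and -4.48).

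CCH replicate 1 stood apart from the other rats, for these genes and over all named genes. The quartiles of deviation from the control mean were widest on it, at -0.34 to 0.23 for the 61 genes and -0.24 to 0.31 for all named genes. It was the lowest of the 8 arrays for 25 of 61 genes (41.0%) and the highest for 13 (21.3%), against 23.3% and 28.3% of all named genes. CCH replicate 4 was the highest for 16 of the 61 (26.2%), against 14.2% of all named genes. The median deviation of the 61 genes from the control mean was -0.11 on CCH replicate 1 and 0.09, 0.10 and 0.11 on CCH replicates 2 to 4. Over all named genes the median deviation was 0.03 on CCH replicate 1 and 0.01, 0.003 and 0.03 on CCH replicates 2 to 4. On CCH replicate 1 the hnRNPs were at a median of -0.17 and the snRNP proteins at -0.24, while the SF3 subunits were at 0.25. It was also the array with the brightest 75th percentile, at 882. Without it the median difference of the 61 genes was 0.09, and 2.22% of all tested probes were called.

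**Figure D5:**
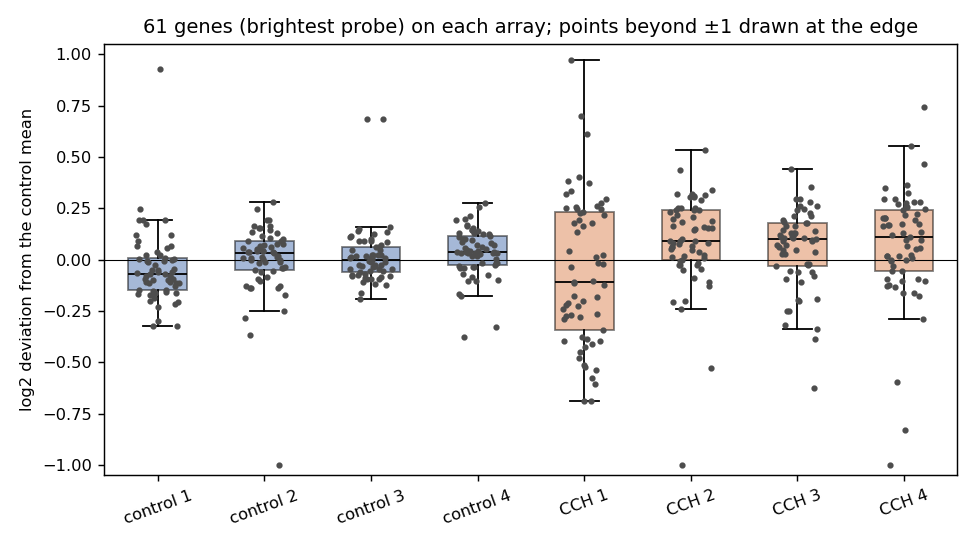
Deviation of each of 61 genes (brightest probe) from its control mean on the log2 scale (vertical axis), for each of the 8 arrays (horizontal axis), with values beyond 1 or -1 drawn at the edge. CCH replicate 1 has the widest spread and a median of -0.11, while the other CCH arrays have medians of 0.09 to 0.11.

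Other genes of the splicing machinery, in lists drawn up beside the main one, had no called probe. Over all 9741 named genes, each read from its brightest probe, 53.1% were higher, the median difference was 0.02 and 13.9% had an unadjusted p under 0.05, and the counts of each list below stand beside these shares. Of 53 tested core spliceosome genes outside the selection, 40 were higher and 13 lower, with a median difference of 0.09 (7 higher and 1 lower at an unadjusted p under 0.05 by limma). Dhx16, the helicase that activates the spliceosome, was at 0.88 ± 0.15 (limma adjusted p = 0.0566), and at 0.29 after normexp correction. SR protein kinases and RS-rich co-factors were 17 higher and 8 lower of 25 tested, median 0.08, with 2 higher and 2 lower at an unadjusted p under 0.05. Prpf4b, a kinase of the spliceosome, was at 0.18 and Rsrc1, an RS-rich protein, at -0.28. Each gene also had a dimmer tested probe, whose gap to the brightest probe was not called. That gap changed by 0.38 ± 0.14 in Prpf4b (limma adjusted p = 0.227) and by 0.35 ± 0.09 in Rsrc1 (adjusted p = 0.0777). Sfswap, an RS-rich regulator that controls its own splicing, had probes at 0.29 and -0.25, singled out because their gap was called. That gap was 0.29, 0.24, 0.19 and 0.31 in the controls and -0.24, -0.33, -0.25 and -0.31 on CCH. It changed by -0.54 ± 0.08 (limma adjusted p = 0.0135). The call was lost without control replicate 1 and without both CCH arrays lowest in choroid plexus signal. In each of these settings 0 of 2729 gaps were called over all genes.

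Of 23 other splicing regulators 15 were higher and 8 lower, with a median of 0.09 and with 2 genes each way at an unadjusted p under 0.05 by limma. The helicase Ddx17 was at 0.33 and Rbmx, the X-linked hnRNP G, at -0.36. RNA-binding proteins of mRNA stability, transport and translation were split 9 to 8, with a median of 0.02 and with 1 higher and 3 lower at an unadjusted p under 0.05, beside 13.9% of named genes. Zfp36l2, which speeds decay of AU-rich mRNAs, was at -0.55 ± 0.09 (limma adjusted p = 0.0567). Syncrip, the closest relative of Hnrnpr, was at -0.44 ± 0.09 (adjusted p = 0.0722), with all CCH arrays below the controls. Of 5 temperature-responsive genes 4 were lower and 1 higher, with 2 and 1 at an unadjusted p under 0.05, beside 13.9% of named genes. The heat-inducible chaperone Hspa1a was at -2.56 ± 0.48 (limma adjusted p = 0.0653) and Hsp90aa1 at -0.49 ± 0.08 (adjusted p = 0.0562). Gaps of dimmer Hsp90aa1 probes to the brightest changed by 0.40 ± 0.13, -0.21 ± 0.09 and -0.15 ± 0.08. None of these gaps was called (limma adjusted p = 0.14, 0.303 and 0.45). The cold-inducible RNA-binding protein gene Cirbp was at -0.10.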

How the data were processed

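RNA of hippocampi from 8 rats was measured on 1-colour Agilent arrays, 1 array per rat (n = 4 per group). Per the file headers, spot intensity was extracted with Agilent Feature Extraction 9.5. The signal the authors deposited is a linear intensity after background subtraction, not scaled between arrays. The value table holds the same intensity as deposited, rounded (largest relative difference 0.00498), with column medians of 80.2, 63.25, 69.2 and 66 for the controls and 102, 85.35, 76.9 and 71.8 for CCH. Groups came from titles and treatment labels, and free-text descriptions that contradict them were not used. The number of arrays limits the precision. The p-values set a difference against the spread between single rats within the groups, which holds no spread between slides.

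From 43379 non-control spots per array, log2 processed signal minus the array's 75th percentile was averaged per probe, with 55 to 122 marked spots per array set to missing. A probe was tested if well above background on at least 4 of 8 arrays with at least 3 values per group. The groups were tested with lmFit and eBayes of limma 3.58.1 (R 4.3.3), two-sided, and p-values were adjusted over 31618 probes. The gap between a gene's probes was fitted the same way over 2729 pairs, an analysis added after seeing the data. Genes were named through RefSeq accessions (GRCr8 table); the array grid uses rn4, so no probe coordinates are given. The script was tested on simulated data. Tables and figures used Python 3.11.15 with pandas 2.3.3 and matplotlib 3.10.9.

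The genes and lists were chosen with earlier results of these data known. Named genes were those with a called probe, per role the 3 with the smallest p of their brightest probe, all CELF and ELAVL genes and Rsrp1, genes with probes of opposite sign that both had p under 0.05 (none), and per companion list the called genes and the 2 smallest p. A gene of a companion list that this rule names is not reported here. Alternatives were other background corrections, scalings, filters, variance models, array weights, a replicate block, the value table and leaving out arrays. Normexp used the median spot signal in place of the planned mean. Markers of astrocytes were 4 higher and 3 lower, of microglia 2 and 5, of endothelium 3 and 3, of blood cells 3 and 3, of choroid plexus 0 and 10, of oligodendrocytes 10 and 0, of neurons 4 and 5 and of hippocampal principal cells 5 and 1.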

Additional observations from a re-analysis of the deposited data

Results flagged for a closer look

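In 58 groups of 4 arrays (29 named probes), 5 held an array whose distance to the nearest other exceeded Dixon's 95% critical value for groups of this size, and chance alone marks about 1 in 20 such groups. Celf3 was at 3.94 on CCH replicate 4, against 3.65 to 3.70 on the other CCH arrays. Elavl4 (A_42_P792864) was at 3.33 on CCH replicate 1, against 3.92 to 3.98. Srsf2 was at -0.37 on CCH replicate 1, against -0.19 to -0.15. Hnrnpab (A_44_P106037) was at -0.36 on CCH replicate 1, against -3.46 to -3.39. Sf3a2 was at -2.30 on control replicate 1, against -2.03 to -2.0 on the other controls. Hnrnpab was examined because of its value on that array, so its mark is not one to set against chance. The causes were not tested.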

How the results depend on the processing

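The count of probes that fell, 1 in the main analysis, was 2 with normexp background correction, 3 with detection required on all 8 arrays, 2 with trend and robust moderation, 3 with array weights, 0 with a replicate block and 0 without CCH replicates 2 and 4, the arrays low in choroid plexus signal (chosen after seeing the data). With single arrays left out it ranged from 0 to 3, the 3 being without CCH replicate 1. The count that rose, 0, was 1 with array weights and 0 to 1 with single arrays left out. The median gene difference of 0.06 moved beyond the spread between rats only without CCH replicates 2 and 4, to -0.024, with CCH replicates 1 and 3 remaining. Over the whole array the 55 calls became 246 with normexp, 209 with detection on all 8 arrays and 29 without a detection filter. They became 215 with trend and robust moderation, 1339 with array weights and 0 with the replicate block. There were 701 without CCH replicate 1, 0 or 1 without any other single array, and 0 without both CCH replicates 2 and 4. Called gaps, 2, were 2 with normexp, 0 with a replicate block, 0 without CCH replicates 2 and 4, and 0 to 3 with single arrays left out. Replicate numbers, which equal the position on the slide, did not pair the samples: same-numbered deviations correlated at 0.15, 0.08, -0.00 and 0.25, and control replicate 2 correlated best with CCH replicate 4 (0.44). With the replicate block the Rsrp1 call was lost (adjusted p = 0.172) and its gap was at adjusted p = 0.0506. Signs turned for Celf1 without CCH replicate 1 (range over single arrays left out -0.033 to 0.18), Elavl1 without CCH replicates 2 and 4 (-0.034), Elavl4 with array weights (0.0054) and without CCH replicate 1 (range -0.17 to 0.048), Rsrp1 A_44_P261538 without CCH replicates 2 and 4 (-0.039) and without CCH replicate 3 or 4 (range -0.044 to 0.18), and Srsf5 with array weights (0.0044) and without CCH replicate 1 (range -0.23 to 0.041). The causes were not tested. A slide block could not be fitted, since each slide held 1 feed group. Dim probes such as that of Rbm41 are limited by their signal over background.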
